A study of Mus musculus with 69 samples.

Results

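Gene expression was compared between granulocyte-monocyte progenitors (GMPs) of Ctsg-PML-RARA knock-in mice (mCG-PR, 4 arrays) and of wild-type mice (WT, 4 arrays). These 8 arrays were chosen by the cell type and genotype in the sample labels, out of 69 arrays in the series. PML-RARA is the fusion protein of acute promyelocytic leukemia. In mCG-PR mice it is inserted in the Ctsg gene, so the fusion is made wherever the locus of cathepsin G, a serine protease of primary granules, is active. The mCG-PR mice were labelled mCG-PR N24 on a Bl/6 Taconic background and were 9 weeks old. The WT mice were Bl/6 Taconic and 7 weeks old. Genotype and age therefore cannot be told apart in this comparison. GMPs were sorted as Lin-, Sca-1-, cKit+, CD34+ cells with high FcγRII/III, from the marrow of individual mice, and their RNA was amplified before it was hybridised to Affymetrix mouse exon arrays. Each array was taken as 1 mouse, so the p-values measure the spread between mice, and the number of arrays limits the precision. In the WT group this spread also holds a difference in sort markers between arrays, which is described below.

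GMPs give rise to neutrophils and monocytes, and in the mouse the sorted population can also hold precursors of basophils, mast cells and eosinophils. RARA is a retinoic acid receptor, and the fusion is known to bind many sites in myeloid chromatin and to hold target genes in a repressed state until it meets a high dose of retinoic acid. Common myeloid progenitors (CMPs), which are sorted by lower FcγRII/III, lie upstream of GMPs, and megakaryocyte-erythroid progenitors (MEPs) lie on the other branch and use little of the Ctsg locus.

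An intensity of 200 was the level at which a probeset (a group of probes that covers about 1 exon) counted as detected. It was reached by 23.5 to 25.1% of all probesets in mCG-PR GMPs and by 24.8 to 25.1% in WT GMPs, with the lowest share in mCG-PR array 5216. Across the tested probesets, arrays of the mCG-PR group correlated with each other at r = 0.635 to 0.863, and arrays of the WT group at 0.864 to 0.938. Arrays 5214 and 5216 stood apart from the rest of the mCG-PR group, with r = 0.635 between them. A gene's value on an array was the median over its tested probesets, and values are given below in the order 5213, 5214, 5215 and 5216 for mCG-PR and 4210, 4211, 4212 and 4213 for WT. Differences are mCG-PR minus WT on the log2 scale.

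The sort was checked first, and 2 of the 4 WT libraries went against their label. Fcgr3, which encodes the Fc receptor used in the sort, read 787, 666, 926 and 508 in mCG-PR GMPs, against 1277, 1385, 176 and 333 in WT GMPs. Car1, a carbonic anhydrase of early erythroid cells, read 143, 154, 156 and 58.4 in mCG-PR GMPs, against 258, 318, 6115 and 5409 in WT GMPs. The libraries labelled WT GMP 4212 and 4213 were thus low in the sort receptor and high in an erythroid gene. The libraries labelled WT CMP 4112 and 4113 showed the opposite, with Fcgr3 at 1295 and 1214 and Car1 at 256 and 198, whereas the third WT CMP array, 4111, read 170 for Fcgr3 and 4597 for Car1. In mCG-PR CMPs, Fcgr3 ranged between 70.3 and 456 and Car1 between 1631 and 6608. Pf4, a platelet chemokine, reached 2499.9 and 1758 in WT GMP 4212 and 4213, against 656 and 469 in WT GMP 4210 and 4211. Ela2, the neutrophil elastase gene, read 2661 and 3444 in WT GMP 4212 and 4213, against 8430.1 and 8841 in WT GMP 4210 and 4211. The summed level of the 15 measured erythroid markers was 2577 to 4064 in mCG-PR GMPs, against 3888, 3395, 14453 and 13475 in WT GMPs. The labels were kept in every comparison, and the counts of called genes and probesets with 1 gene symbol were repeated without these libraries. The genes in this check were picked after their values were seen.

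**Figure D1:**
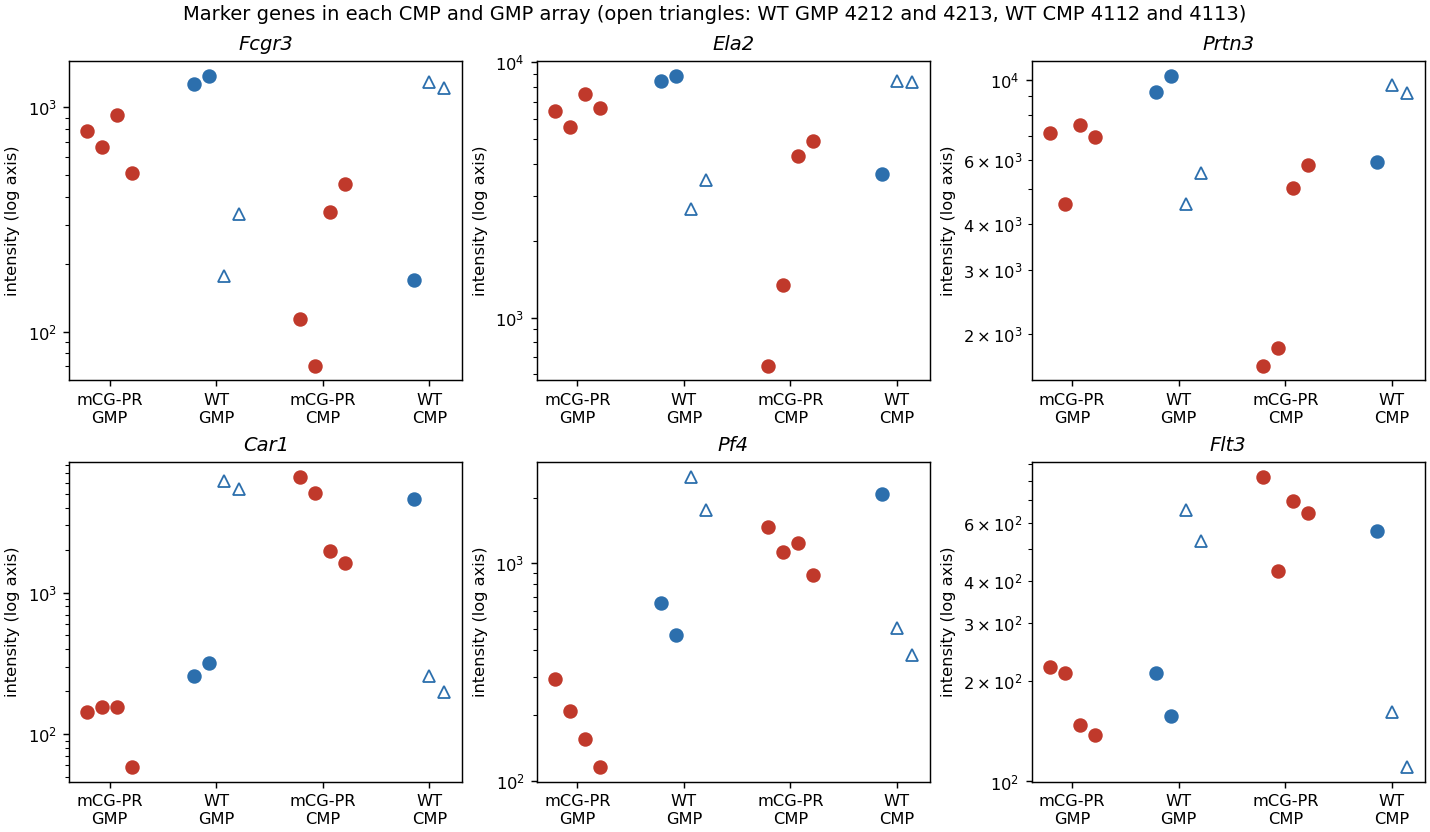
Intensity (log axis) of 6 marker genes in each CMP and GMP array, 1 point per array, with mCG-PR in red and WT in blue. Open triangles mark WT GMP 4212 and 4213 and WT CMP 4112 and 4113: in the WT GMP column their Fcgr3 lies at 176 and 333 and their Car1 at 6115 and 5409.

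Other genes of the sort were less divided. Cd34, the stem and progenitor antigen, read 1734 to 2155 in mCG-PR GMPs and 1753 to 2127 in WT GMPs, with a difference of 0.03 ± 0.16 (SE, adjusted p = 0.947, limma). Kit, the stem cell factor receptor, read 1159 to 1757 in mCG-PR GMPs, against 1619, 1584, 2759 and 2072 in WT GMPs, with a difference of -0.33 ± 0.24 (adjusted p = 0.595). Fcgr3 itself differed by 0.31 ± 0.62 (adjusted p = 0.838), and Fcgr2b, the inhibitory Fc receptor, by 0.79 (adjusted p = 0.285). No probeset of Ly6a, which encodes Sca-1, reached 200 on any of the 8 arrays. Of the sex-linked genes, Xist read 37.1 in mCG-PR array 5213 and 3822 to 4376 in the other mCG-PR arrays, against 26.3 and 27.0 in WT arrays 4212 and 4213 and 3945 and 4129 in WT arrays 4210 and 4211. Y-linked Eif2s3y ran the other way, at 521 in array 5213 and 366 and 484 in WT arrays 4212 and 4213, and at or below 18.3 elsewhere. Both patterns thus occurred in both genotypes, and the split of the WT group by sex-linked genes was the same as its split by sort markers. Array 5213, also low in Xist, read 787 for Fcgr3 and 143 for Car1, within the range of its group. WT CMP 4112 and 4113 were low in Xist too, at 32.2 and 28.5, and their Fcgr3 and Car1 went the other way. The part of sex in the marker split was not tested.

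The gene that carries the insertion was the next check. Ctsg read 5849, 5431, 6092 and 5861 in mCG-PR GMPs, against 6794, 7052, 4108 and 4703 in WT GMPs. The mCG-PR values lay between both WT pairs, and the difference was 0.07 ± 0.21 (SE, adjusted p = 0.891). None of its 9 tested probesets was called. Pml, whose protein builds nuclear bodies, differed by -0.24 ± 0.23 (adjusted p = 0.667), and none of its 19 tested probesets was called. Rara differed by -0.24 ± 0.25 (adjusted p = 0.701), with none of 14 probesets called. No probeset is named for the fusion itself, so its level was not measured here. Ccnh, which encodes cyclin H, read 335, 444, 269.8 and 256 in mCG-PR GMPs, against 391, 468, 397 and 456 in WT GMPs. The groups overlapped, and the difference of -0.42 ± 0.21 did not pass the test (adjusted p = 0.5).

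Of 15532 genes tested by limma, 24 were higher and 8 were lower in mCG-PR GMPs past both limits, an adjusted p below 0.05 and a 2-fold change. These are 0.155% of the genes tested for the higher ones and 0.0515% for the lower ones, and the adjusted p alone gave the same 32 genes. Of the 123312 probesets tested singly, 100 were higher and 22 were lower (0.0989% in all), and they belonged to 49 genes, none of which had called probesets in both directions. None of the 32 genes had values that overlapped between the groups. Such separation was found for 3.27% of all tested genes in the higher direction and 4.93% in the lower one. The median difference was 0.02 over all genes and -0.12 over all probesets. Genes named below that did not pass the test, other than the checks above, were picked after their values were seen. The gene lists were chosen with earlier results of these data known, so counts of their members that passed are a description only. Among the 24 higher genes, array 5216 was the lowest of the mCG-PR arrays for 19.

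These counts rested on the arrays included. With WT 4212 and 4213 both left out, limma called 0 of 15397 genes (0% in either direction) on the 6 arrays that remained, where 779 genes had an unadjusted p under 0.05. All 32 genes kept their direction there, which was close to certain in advance because their groups did not overlap. The smallest adjusted p-values among the 32 were 0.0529 for Cpa3 and 0.0543 for Cdh1. When WT CMP 4112 and 4113 were left out as well and the spread was estimated over all remaining GMP, CMP and MEP arrays, 36 genes were higher (0.234%) and 16 were lower (0.104%), and 22 of the 32 genes were among them. Leaving out a single array gave 45 called genes without mCG-PR 5216. It gave 12 without 5213, 11 without 5214 and 6 without 5215. It gave 7 without WT 4210, 10 without 4211, 4 without 4212 and 4 without 4213. Without both 5214 and 5216, 14 genes were called, of which 11 were among the 32.

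**Figure D2:**
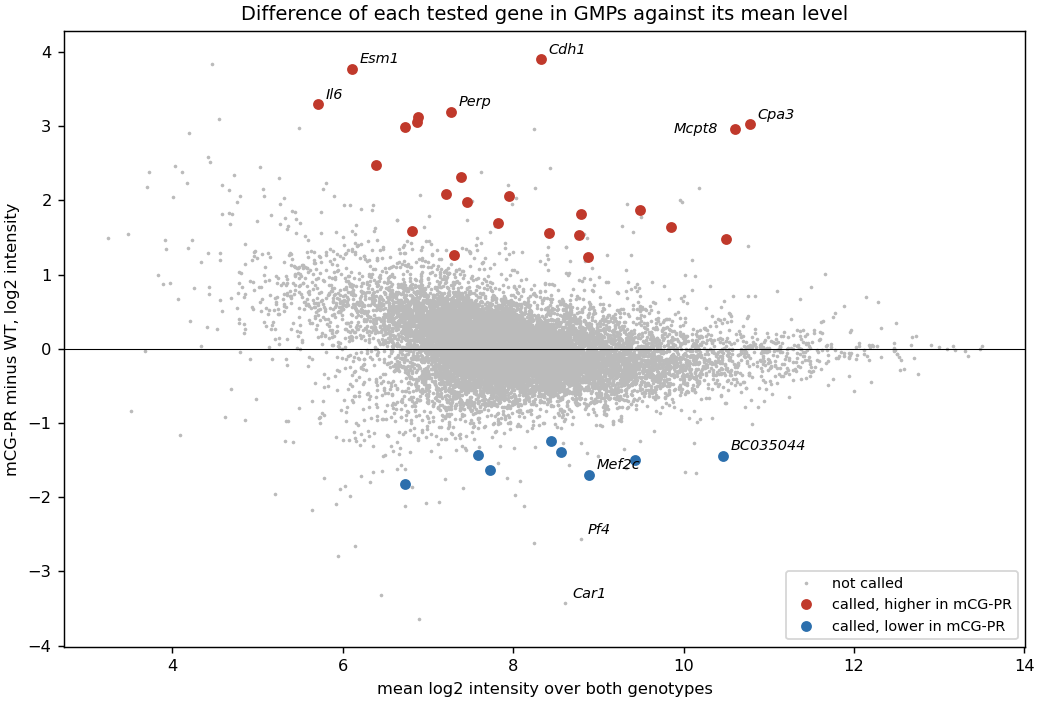
Difference between mCG-PR and WT GMPs (log2 intensity) of each of the 15532 tested genes against its mean log2 intensity, with the 24 higher genes in red and the 8 lower genes in blue. Car1 and Pf4 lie far below 0 and were not called, with differences of -3.43 and -2.56 and a WT group split between both pairs of arrays.

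The largest rise was that of Cdh1, which encodes E-cadherin, the adhesion receptor of epithelial cell junctions. Cdh1 read 1839, 1269, 1220.3 and 844 in mCG-PR GMPs, against 104, 83.0, 71.0 and 78 in WT GMPs. All WT arrays lay below the detection level and every mCG-PR array lay above 4 times that level. The difference was 3.90 ± 0.25 (SE, adjusted p = 0.000362), and since the WT level has only an upper bound, the rise was at least 6.23-fold. Such bounds here set the mean of the brighter group against 200. Of 18 tested Cdh1 probesets, 16 were called, and all 18 were higher in mCG-PR, by 1.06 to 6.04. Without WT 4212 and 4213 the difference was 3.74. Perp, a tetraspan protein of desmosomes and a p53 target, read 515, 1019, 385 and 238 in mCG-PR GMPs, against 50.7, 39.9, 63.6 and 52.8 in WT GMPs. It rose by 3.20 ± 0.39 (adjusted p = 0.0187), at least 2.34-fold. The list of E-cadherin, its catenins, their regulators and related junction genes had 17 measured members, of which these 2 rose and none fell. Over all tested genes, 0.155% rose. The list's median difference was -0.14. Ctnnb1, Ctnna1 and Ctnnd1, which encode the catenins that link E-cadherin to actin, differed by -0.35, -0.46 and -0.55 and did not pass the test (adjusted p = 0.536, 0.442 and 0.325).

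Of 25 measured genes of basophils and mast cells, 3 rose. Cpa3, the carboxypeptidase stored in mast cell granules, read 5365, 5654, 4389 and 4756 in mCG-PR GMPs, against 718, 560.4, 722 and 490.5 in WT GMPs. This was a rise of 3.03 ± 0.19 (8.16-fold, adjusted p = 0.000362), and all 13 tested probesets were called. Mcpt8, a basophil serine protease gene that lies in the same protease cluster as Ctsg, read 5859, 5328, 4577 and 2504 in mCG-PR GMPs, against 778, 678, 415 and 443 in WT GMPs. It rose by 2.96 ± 0.32 (7.80-fold, adjusted p = 0.0115), with all 6 probesets called, and its lowest mCG-PR value was more than 3 times its highest WT value. Il6, a cytokine made by mast cells among others, read 221, 165, 149 and 132 in mCG-PR GMPs, against 10.4, 33.0, 15.4 and 14.7 in WT GMPs. Its difference was 3.30 ± 0.34 (adjusted p = 0.00954), but only array 5213 reached 200, so no fold is given. Of the other protease genes of the Ctsg cluster, Gzmb, Gzmn and Cma1 differed by 0.29, 0.67 and 0.08 and did not pass.

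The window from 250 bases before to 50 bases after the start of Cpa3 and of Mcpt8 is shown because these are the brightest genes that rose and they rose together. The sequences are those of RefSeq on GRCm38.p6, on the minus strand at chr3:20242132-20242431 for Cpa3 and at chr14:56085148-56085447 for Mcpt8. Capitals mark GATAA, a core that GATA factors bind, and CANNTG, the E-box of basic helix-loop-helix factors, each searched on both strands.
Cpa3: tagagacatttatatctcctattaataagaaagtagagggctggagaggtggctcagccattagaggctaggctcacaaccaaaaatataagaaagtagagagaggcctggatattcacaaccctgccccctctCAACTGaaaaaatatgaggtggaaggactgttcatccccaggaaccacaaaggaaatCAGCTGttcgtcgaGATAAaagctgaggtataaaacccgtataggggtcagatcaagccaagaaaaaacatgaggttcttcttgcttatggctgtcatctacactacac
Mcpt8: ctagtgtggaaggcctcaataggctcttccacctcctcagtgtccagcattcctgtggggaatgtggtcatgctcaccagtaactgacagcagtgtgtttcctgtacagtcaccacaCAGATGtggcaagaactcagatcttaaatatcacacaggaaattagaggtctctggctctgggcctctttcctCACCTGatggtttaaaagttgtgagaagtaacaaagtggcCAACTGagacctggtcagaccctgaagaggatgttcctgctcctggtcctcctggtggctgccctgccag
Cpa3 holds 1 GATAA, which begins 45 bases before the start, and 2 E-boxes, and Mcpt8 holds 3 E-boxes and no GATAA. The letters AGGTCA, the half-site of nuclear receptors such as RARA, are in neither window, and no searched motif overlapped another in them. GATAA is in 25.4% of all 32851 such windows, AGGTCA in 16.3% and CANNTG in 72.3%. Counted by gene over all windows of a gene, 19 of the 24 higher genes had a window in the table, of which 8 held GATAA, 2 held AGGTCA and 13 held CANNTG. The shares over all genes were 28.4%, 18.1% and 75.0%. Of the 8 lower genes, 6 had a window, of which 4 held GATAA, 2 held AGGTCA and 6 held CANNTG. These matches are a description of the letters only.

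The list of basophil and mast cell genes had 37 members, of which 25 were measured. Il6, Cpa3 and Mcpt8 rose and none fell, where 0.155% of all tested genes rose. The median difference was 0.71, against 0.02 over all genes, and without WT 4212 and 4213 it was 0.53. On every mCG-PR array 9 of the 25 members lay above WT, a separation found for 3.27% of all tested genes. The summed level was 18529 to 29182 in mCG-PR GMPs, against 8253 to 10923 in WT GMPs, with Cpa3 and Mcpt8 in the sum. Of the defining markers, Ms4a2, a chain of the IgE receptor, read 1437, 1214, 666 and 356 in mCG-PR GMPs, against 178, 169, 121 and 132 in WT GMPs, and its difference of 2.44 missed the threshold (adjusted p = 0.0629). Tested singly, 2 of its 11 probesets were called, both higher. Hdc, which makes histamine, read 2227, 1881, 2317 and 1682 in mCG-PR GMPs, against 1147, 1051, 189 and 296 in WT GMPs (adjusted p = 0.282). Gata2, a factor of both lineages, overlapped between the groups, with a difference of 0.71 (adjusted p = 0.522). Fcer1a and Cd200r3 had no probeset at 200 in any of the 8 arrays, and the mast cell tryptases Tpsb2 and Tpsab1 differed by -0.14 and 0.19. In a sorted bulk sample, more cells of a type and more RNA per cell cannot be told apart, and the part of these cells in the rise of single genes was not tested. The 7 measured eosinophil genes had a median of 1.16 and none passed. Without WT 4212 and 4213 that median was 0.13, as the summed eosinophil level was 2917 to 6624 in mCG-PR GMPs, against 4127, 3653, 893 and 1039 in WT GMPs.

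**Figure D3:**
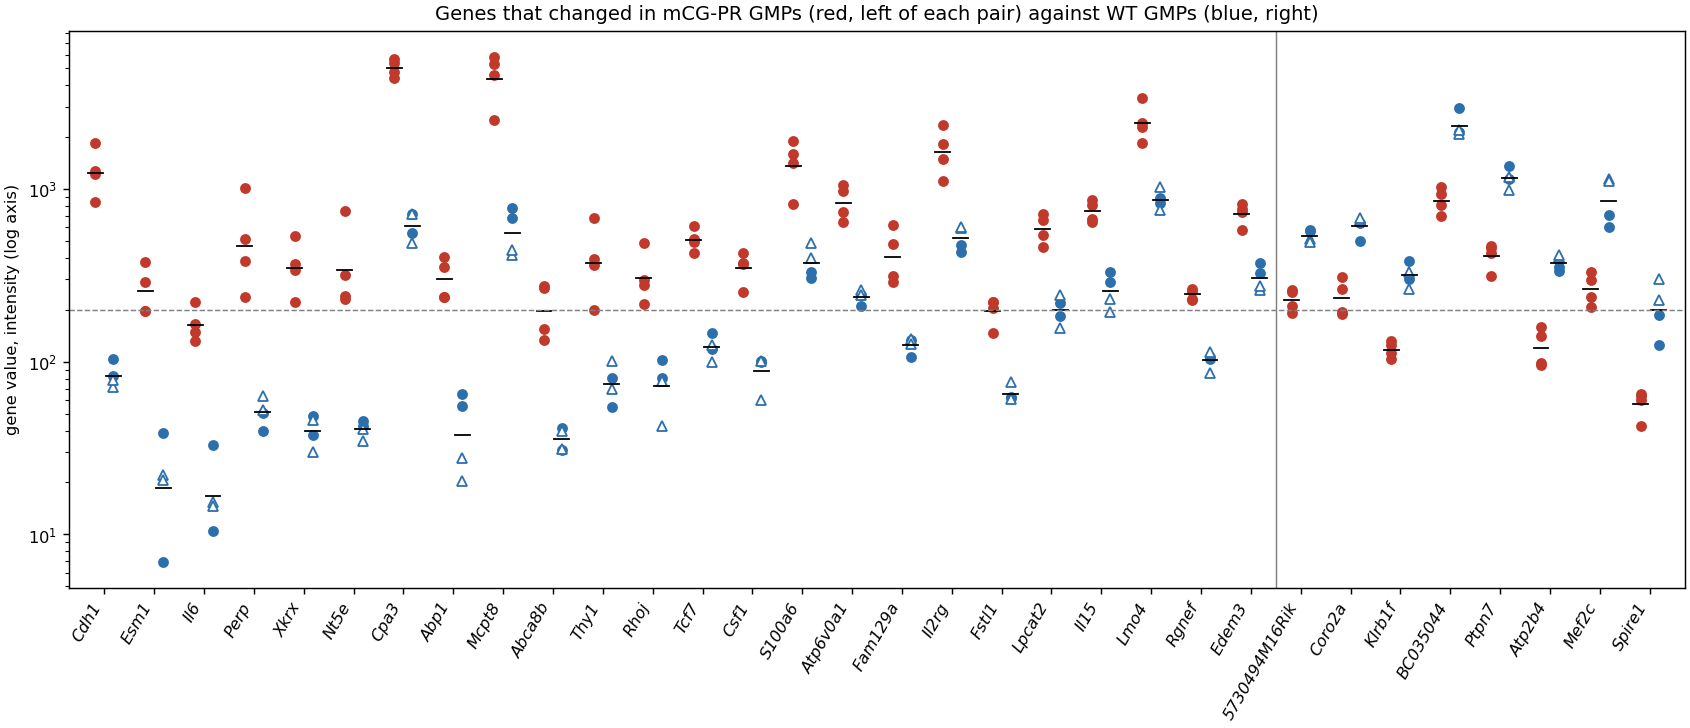
Gene value (intensity, log axis) of the 32 genes that passed the test, 1 point per array, with mCG-PR GMPs in red at the left of each pair and WT GMPs in blue at the right, ordered by difference. Black bars are geometric means, the dashed line is the detection level of 200, and open triangles are WT 4212 and 4213, which do not overlap with mCG-PR for any of these genes.

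Several genes of the cell surface and of secreted proteins, low in WT GMPs, also rose, and so did S100a6, which was detected on all WT GMP arrays. Esm1, a secreted proteoglycan of endothelial cells, was measured by 1 probeset and read 198, 290.3, 197 and 378 in mCG-PR GMPs, against 6.89, 38.9, 22.0 and 20.7 in WT GMPs. Its difference was 3.77 ± 0.48 (adjusted p = 0.0199), at least 1.28-fold. Nt5e, the ecto-enzyme CD73 that makes adenosine, read 240.1, 749.7, 318 and 231 in mCG-PR GMPs, against 42.7, 45.7, 34.7 and 40.7 in WT GMPs. Array 5214 stood well above the rest of its group, and the difference was 3.06 ± 0.35 (adjusted p = 0.0144), at least 1.70-fold, with 7 of 13 probesets called. Xkrx, a membrane protein of the XK family, rose by 3.13 ± 0.28 (adjusted p = 0.00458), with mCG-PR arrays between 221 and 534 and WT arrays between 30.0 and 48.5. Abp1, a diamine oxidase that breaks down histamine, read 238, 407, 355 and 237 in mCG-PR GMPs, against 55.2, 64.9, 27.6 and 20.5 in WT GMPs. It rose by 2.99 ± 0.38 (adjusted p = 0.0201), at least 1.5-fold. Abca8b, a lipid transporter of the ABC family, differed by 2.48 ± 0.27 (adjusted p = 0.0117), and as its mCG-PR mean lay just below 200 no fold is given. Csf1, the growth factor of macrophages, read 424, 368, 374 and 255 in mCG-PR GMPs, against 101, 99.1, 60.3 and 101 in WT GMPs. This ligand rose by 1.98 ± 0.24 (adjusted p = 0.0179), at least 1.75-fold. S100a6, a calcium-binding protein, rose by 1.87 ± 0.28 (3.64-fold, adjusted p = 0.0470), at 815 to 1892 in mCG-PR GMPs and 307 to 490.4 in WT GMPs. None of its 3 tested probesets was called.

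Genes best known from lymphocytes moved in both directions. Tcf7, a transcription factor of T cells and early progenitors that acts with beta-catenin, read 429, 613, 516 and 491 in mCG-PR GMPs, against 147, 119, 99.8 and 125 in WT GMPs. It rose by 2.06 ± 0.19 (adjusted p = 0.00458), at least 2.54-fold. Thy1, a surface glycoprotein of T cells and stem cells, read 679, 393, 364 and 199 in mCG-PR GMPs, against 80.9, 54.6, 69.6 and 101 in WT GMPs, a difference of 2.32 ± 0.36 (adjusted p = 0.0484), at least 1.86-fold. Klrb1f, a lectin-like receptor of natural killer cells, read 124, 104, 132 and 113 in mCG-PR GMPs, against 301, 382, 265 and 332 in WT GMPs. It fell by 1.43 on the log2 scale (SE 0.18, adjusted p = 0.0199). Tested singly, 4 of 13 Tcf7 probesets, 1 of 8 Thy1 probesets and none of 6 Klrb1f probesets were called. Tcf7, Thy1 and Klrb1f were the members of the T and NK cell list to pass, out of 11 measured, and the list's median was 0.32. Over all tested genes, 0.155% rose and 0.0515% fell. Cd3e and Cd4, which mark T cells, differed by 0.32 and 0.12 (adjusted p = 0.514 and 0.839). Cd3d, another T cell marker, differed by 2.06, with groups that overlapped (adjusted p = 0.499). Of the 11 genes, 9 were higher and 2 were lower. The summed level of the list was 2622 to 3614 in mCG-PR GMPs and 2024 to 2339 in WT GMPs, and the part of such cells was not tested.

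Both a ligand and a receptor chain of the common gamma chain family rose. Il15, the cytokine that sustains NK and memory T cells, read 866, 809, 674 and 648 in mCG-PR GMPs, against 329.5, 289, 230.0 and 195 in WT GMPs, a rise of 1.54 ± 0.21 (2.91-fold, adjusted p = 0.0269). Il2rg, the shared receptor chain, read 1492, 2341, 1817 and 1119 in mCG-PR GMPs, against 431, 475, 593 and 605 in WT GMPs, a rise of 1.65 ± 0.25 (3.13-fold, adjusted p = 0.0470). Of 17 measured members these were the ones that passed, and none fell, where 0.155% of all tested genes rose. Tested singly, 3 of 13 Il15 probesets and 1 of 11 Il2rg probesets were called. Il15ra, Jak1 and Jak3, the receptor and kinases of the same route, differed by -0.44, -0.29 and 0.26 (adjusted p = 0.513, 0.58 and 0.581). Without WT 4212 and 4213 and with the spread over the remaining arrays, Il2rg passed (adjusted p = 0.00156) and Il15 did not (difference 1.27, adjusted p = 0.321).

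Lmo4, a LIM-only transcription cofactor, read 3375, 2285, 2419 and 1853 in mCG-PR GMPs, against 832, 885, 754 and 1024 in WT GMPs, and rose 2.79-fold (1.48 ± 0.21, adjusted p = 0.0376). It and Tcf7 were the 2 members to rise among 50 measured myeloid transcription factors, where 0.155% of all tested genes rose. None of the 50 fell, and their median was 0.01. Cebpa and Gfi1, factors of granulocyte fate, differed by 0.39 and 0.54 (adjusted p = 0.483 and 0.598), and Sfpi1, which encodes PU.1, by -0.65 (adjusted p = 0.423). Atp6v0a1, a membrane subunit of the proton pump that acidifies vesicles, read 1051, 974, 736 and 649 in mCG-PR GMPs, against 209, 242, 260.3 and 244 in WT GMPs. It rose 3.51-fold (1.81 ± 0.20, adjusted p = 0.0117), and all 25 of its tested probesets were higher, of which 7 were called. The other 15 measured subunits did not pass, where 0.155% of all tested genes rose, and the list median was -0.07. In the fit without WT GMP 4212 and 4213 and WT CMP 4112 and 4113 with the spread shared, Atp6v0a1 rose and Tcirg1, another membrane subunit of the pump, fell by 1.27 (adjusted p = 0.00338). Another 5 higher genes, Fam129a, Fstl1, Lpcat2, Rgnef and Edem3, rose by 1.24 to 1.70 and are named after their values were seen.

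The 8 genes that fell did so by 1.24 to 1.82 on the log2 scale. With WT 4212 and 4213 left out, none of the 8 was called. Their differences then ranged from -1.59 for Ptpn7 to -1.23 for Coro2a. Mef2c, a transcription factor that in progenitors favours the monocyte and lymphoid fates, read 332, 207, 299 and 237 in mCG-PR GMPs, against 707, 601, 1142 and 1116 in WT GMPs. It fell by 1.70 (SE 0.26, 3.25-fold, adjusted p = 0.0487), and all 26 of its tested probesets were lower, of which 4 were called. WT 4212 and 4213 were the higher pair, and without them the difference was -1.25. Ptpn7, a tyrosine phosphatase of blood cells, read 467, 316, 456 and 426 in mCG-PR GMPs, against 1139, 1352, 986 and 1182 in WT GMPs, and fell by 1.49 (2.81-fold, adjusted p = 0.0201). Atp2b4, a plasma membrane calcium pump, read 159, 98.6, 140.2 and 96.0 in mCG-PR GMPs, against 335, 353, 404 and 414 in WT GMPs. It fell by 1.64 (SE 0.21, adjusted p = 0.0202), at least 1.87-fold. BC035044, known in the annotation by its clone name, read 1029, 935, 805 and 697 in mCG-PR GMPs, against 2149.7, 2939.8, 2099 and 2201 in WT GMPs, and fell by 1.44 (2.71-fold, adjusted p = 0.0263). Coro2a, an actin-binding coronin, fell by 1.39 (2.62-fold, adjusted p = 0.0484), and 5730494M16Rik fell by 1.24 (2.37-fold, adjusted p = 0.0273). Spire1, an actin nucleation factor, read 42.2 to 64.7 in mCG-PR GMPs and 125 to 302 in WT GMPs, so its fall of 1.82 (adjusted p = 0.0486) is at least 1.00-fold against the detection level. Its WT values split in the same way, with 302 and 228 in WT 4212 and 4213. Tested singly, none of the 10 probesets of Ptpn7, 22 of Coro2a and 13 of Spire1 was called.

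Gene lists of the lineages next to GMPs held no other gene that passed. Of 26 measured monocyte and dendritic cell genes none passed by gene value, 16 were lower and 10 were higher, and the median was -0.33. Tested singly, 1 of 9 Irf8 probesets and 1 of 15 Fgd2 probesets were called, both lower. The lowest of the 26 genes, named after their values were seen, were Ly86, Irf8 and Csf1r. Csf1r, the receptor for Csf1, read 385, 268, 332 and 199 in mCG-PR GMPs, against 780.3, 824, 692 and 763 in WT GMPs, and its difference of -1.41 ± 0.22 just missed the threshold (adjusted p = 0.0505). Irf8, the factor that monocyte and dendritic cell development needs, read 369.6, 141, 394 and 149 in mCG-PR GMPs, against 806, 678, 611 and 703 in WT GMPs (adjusted p = 0.208). In both genes the groups did not overlap, and WT 4212 and 4213 lay close to the other WT arrays. With the spread over the remaining arrays and without WT GMP 4212 and 4213 and WT CMP 4112 and 4113, Csf1r passed (difference -1.48, adjusted p = 0.0192), as did the phagocyte oxidase subunits Ncf1 (-1.36, adjusted p = 0.0202), Ncf4 (-1.41, adjusted p = 0.0114) and the megakaryocyte gene Pf4 (-1.48, adjusted p = 0.0351), all lower. The 15 measured erythroid genes had a median of -0.75 and a lowest value of -3.43, and the 15 megakaryocyte genes a median of -0.36 and a lowest value of -2.56, with none past the test. Without WT 4212 and 4213 the medians were -0.16 over the 13 erythroid genes and 0.27 over the 12 megakaryocyte genes still measured.

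Lists of granule genes and of growth held no gene that passed. None of 14 primary granule genes passed (median 0.26, and -0.11 without WT 4212 and 4213, where 10 of the 14 were lower), and Mpo and Prtn3 differed by 0.04 and -0.12. None of 21 secondary granule and neutrophil genes passed (median 0.35), of which 18 were higher and Mmp8, a collagenase of secondary granules, was the highest at 1.95 (adjusted p = 0.141). Tested singly, an Mmp8 probeset was called, at 2.14 (adjusted p = 0.0374). Of 66 ribosome biogenesis genes none passed, 65 were lower in mCG-PR GMPs, and the median was -0.43, against 0.02 over all genes. Of 28 nucleoporins none passed and 26 were lower (median -0.31). Of 41 interferon-stimulated genes none passed and 31 were lower (median -0.38). Of 50 genes of DNA replication and mitosis none passed and 42 were lower (median -0.22). The share of all tested genes that were lower was not counted, so these counts have no reference beside them. The summed level of the ribosome biogenesis genes was 38139, 37238, 39503 and 26980 in mCG-PR GMPs and 44669 to 48466 in WT GMPs. Array 5216, the lowest in this sum, also had the lowest share of detected probesets. None of the 22 retinoid receptors and targets passed (median -0.09), and Rarb and Cyp26a1, both known to be induced by retinoic acid, differed by -0.84 and -0.02. The other lists, of B cell, stem cell, antigen presentation, NADPH oxidase, cytokine receptor and immediate early genes, had no member that passed, and their medians lay between -0.35 and 0.20. Without WT 4212 and 4213 the stem cell median turned to 0.23, against -0.35 over all arrays, and those of the retinoid and E-cadherin lists turned to 0.04 and 0.02. The antigen presentation median was then -0.08, against -0.27 over all arrays, and the B cell median 0.03, against 0.20. The secondary granule median was 0.21, that of the NADPH oxidase -0.34, that of DNA replication and mitosis -0.37 and that of immediate early genes -0.26, while that of ribosome biogenesis was -0.46.

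**Figure D4:**
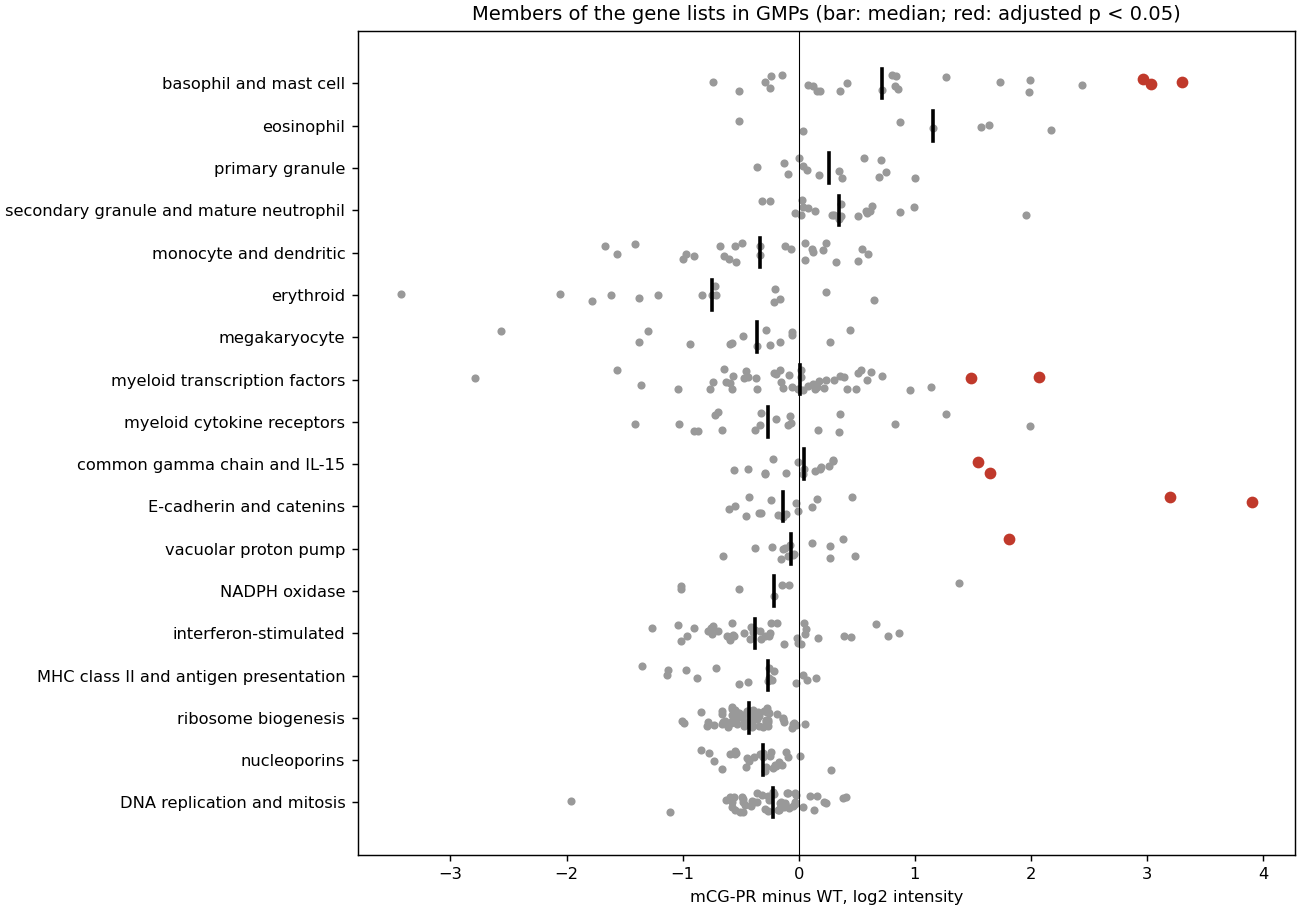
Difference between mCG-PR and WT GMPs (log2 intensity) of each measured member of 18 gene lists, 1 point per gene, with the list median as a black bar and genes of adjusted p under 0.05 in red. In the lists plotted, the genes past the test lie at the right end, while the 66 ribosome biogenesis genes sit close together around a median of -0.43.

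The genotype effect in GMPs was then set against that in CMPs (4 mCG-PR and 3 WT arrays) and MEPs (4 mCG-PR and 4 WT arrays). The interaction of genotype and population was tested over all 23 arrays. Between GMPs and CMPs, limma called 0 genes (0%), while 1152 had an unadjusted p under 0.05. Of the 32 genes, 30 had the same direction in CMPs. The 24 higher genes had a median difference of 2.07 in GMPs and 1.35 in CMPs, and the 8 lower genes -1.47 in GMPs and -0.67 in CMPs. As the 32 genes were picked by their GMP difference, smaller CMP medians can follow from that choice alone. These medians therefore do not show a weaker effect in CMPs. The share of all genes with the same direction in CMPs was not counted. Cdh1 differed by 3.06 in CMPs (interaction 0.85, adjusted p = 0.621) and Cpa3 by 3.36 (interaction -0.33, adjusted p = 0.966). Mef2c differed by 0.16 in CMPs, but the interaction of -1.85 did not pass (adjusted p = 0.252). This comparison rests on WT GMP 4212 and 4213 and on WT CMP 4112 and 4113, the libraries that went against their labels. Without all 4 it again called 0 genes, with WT CMP then 1 array that was assumed to vary like the other groups.

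Between GMPs and MEPs, 17 genes differed in their genotype effect (0.109%), 11 with a more positive and 6 with a more negative effect in GMPs. Of these, 15 were among the 32 genes. Cdh1 rose by 3.90 in GMPs and differed by 1.30 in MEPs, and the interaction was 2.60 ± 0.34 (SE, adjusted p = 0.00120). Atp6v0a1 gave an interaction of 1.84 ± 0.21 (adjusted p = 0.000230), with a difference of -0.03 in MEPs. Tcf7 gave 1.98 ± 0.26 (adjusted p = 0.00120), with 0.09 in MEPs. Perp, Xkrx, Nt5e, Abca8b, Csf1, Fstl1 and Edem3 also passed with a more positive effect in GMPs, and Mef2c, Atp2b4, Ptpn7, BC035044 and Coro2a with a more negative one. The interaction did not pass for Cpa3 and Mcpt8. Cpa3 differed by 3.55 in MEPs (interaction -0.52 ± 0.57, adjusted p = 0.939) and Mcpt8 by 2.58 (interaction 0.38 ± 0.58, adjusted p = 0.955). In MEPs Cpa3 read 205, 192, 783 and 625 in mCG-PR mice, against 28.6, 49.2, 29.8 and 24.1 in WT mice, so the MEP difference lay at a far lower level. Mpo, a granulocyte enzyme that MEPs should lack, read 209.6, 374, 2227 and 1776 in the same mCG-PR MEP arrays, against 156, 201, 121 and 149 in WT MEPs. The mCG-PR MEP arrays highest in Cpa3 were thus also highest in Mpo, and the part of other cells in the MEP values was not tested. Without WT GMP 4212 and 4213, 6 genes differed between GMPs and MEPs, of which Cdh1, Perp, Tcf7 and Atp6v0a1 were among the 32.

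**Figure D5:**
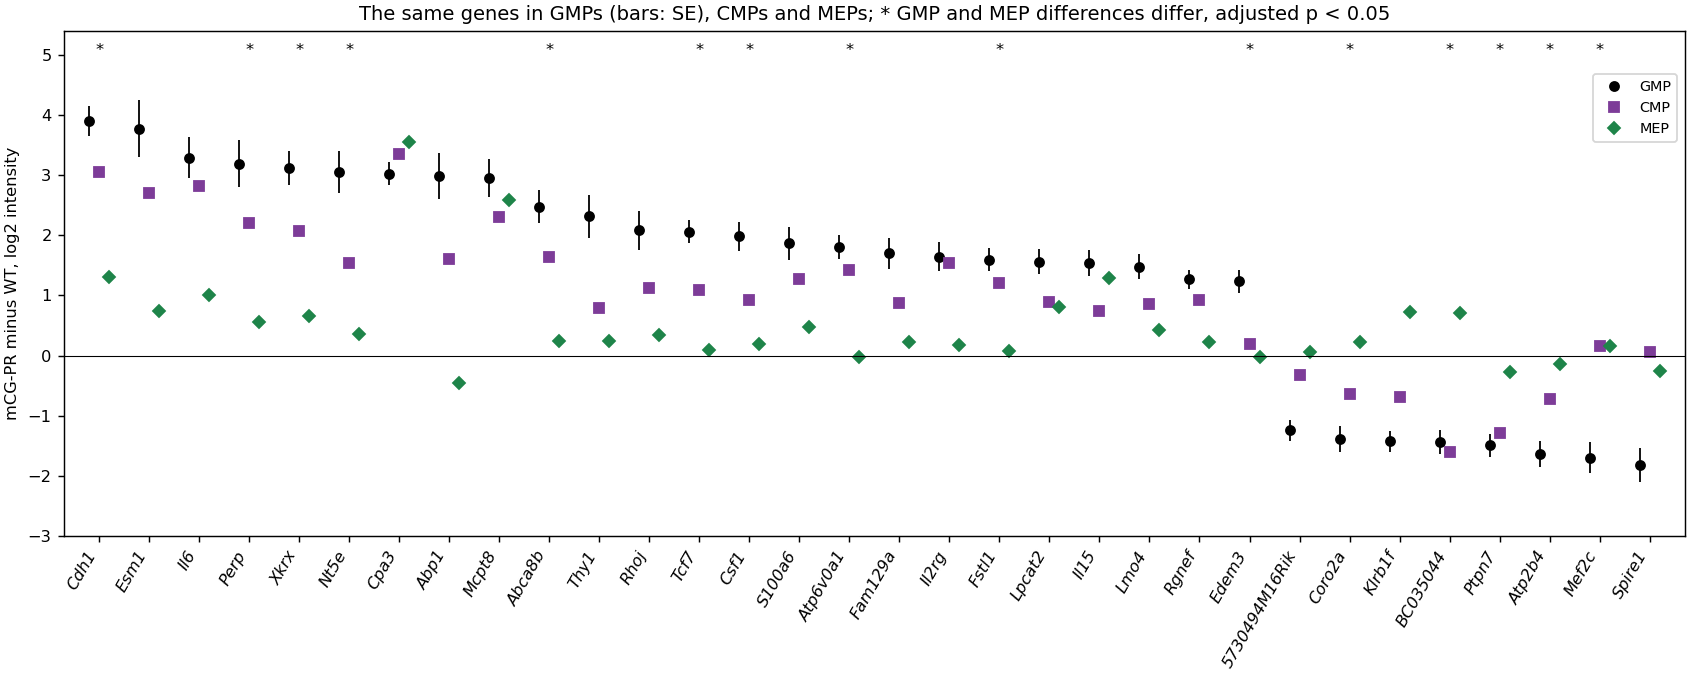
Difference between mCG-PR and WT (log2 intensity) of the 32 genes in GMPs (black circles with SE), CMPs (purple squares) and MEPs (green diamonds). Stars mark the 15 genes whose GMP and MEP differences differed at an adjusted p under 0.05. Cpa3 and Mcpt8 lie at 2.31 or above in all 3 populations.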

How the data were processed

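The intensity values were deposited as a table of linear intensities per probeset, which the authors made by RMA from Affymetrix mouse exon arrays. The submitters' processing notes name Partek 6.6 and mm9. Amplification before hybridisation can compress or distort fold changes. Intensities were put on the log2 scale with no pseudocount (lowest value 2.01). Of 451804 probesets, 259411 had 1 gene symbol in the platform annotation, which can be old, 1897 had several and 190496 had none. Probesets with 1 symbol and an intensity of at least 200 on 1 or more of the 8 GMP arrays were tested, and the median over a gene's probesets was its value. Genotypes were compared over the 8 GMP arrays, and the interaction of genotype with population over 23 GMP, CMP and MEP arrays, with lmFit and eBayes of limma 3.58.1 (R 4.3.3) and Benjamini-Hochberg adjustment. Scripts were tested on simulated data. Named were, of the called genes without overlap between groups, up to 15 in each direction by size of change, up to 4 called members of each gene list, and the checks. The comparison and lists were chosen with earlier results of these data known. Alternatives changed the filter, scaling, spread, summary per gene, array weights and arrays included, and the methods' analysis of variance was run. Arrays of the other populations were not used here. The values of 1 of the called genes are not reported here.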

Additional observations from a re-analysis of the deposited data

Results flagged for a closer look

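In 7 of 76 groups of 4 arrays searched, 1 array lay far from the other 3, and chance gives this in about 1 in 20 groups. These were Nt5e at 749.7 in mCG-PR array 5214, Kit at 1159 in mCG-PR array 5216, Csf1 at 60.3 in WT array 4212 and BC035044 at 2939.8 in WT array 4211. The rest were sex-linked genes in mCG-PR array 5213, with Xist at 37.1, Eif2s3y at 521 and Jarid1d at 204.

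The difference between the genotype effect in GMPs and that in MEPs passed the test for 13 named genes. It was 2.60 for Cdh1, 2.64 for Perp, 2.48 for Xkrx, 2.70 for Nt5e, 2.24 for Abca8b, 1.98 for Tcf7, 1.80 for Csf1 and 1.84 for Atp6v0a1. It was -1.85 for Mef2c, -1.49 for Atp2b4, -1.22 for Ptpn7, -2.15 for BC035044 and -1.61 for Coro2a.

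Among 50774 tested probesets with no gene symbol or several, 14 were called in GMPs, 12 higher and 2 lower in mCG-PR.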

How the results depend on the processing

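The count of called probesets was 122 and that of called genes 32. The methods' analysis of variance was run here on linear intensities, a scale that the methods do not state for it. At an unadjusted p under 0.001 and 2-fold it gave 245 probesets. After Benjamini-Hochberg adjustment it gave 0 probesets and 0 genes, where limma at an unadjusted p under 0.05 had 1668 genes. No intensity filter gave 56 probesets. A spread shared with CMP and MEP arrays gave 949 probesets and 148 genes, and array quality weights gave 272 and 55. The probeset of highest mean gave 13 genes. Leaving out 1 array gave 35 to 155 probesets and 4 to 45 genes. Alternatives chosen after seeing the data gave 50 probesets and 14 genes without 5214 and 5216, 0 of both without WT 4212 and 4213, and 52 genes when WT CMP 4112 and 4113 were left out too and the spread was shared. The difference from CMPs, with 0 genes, gave 1 gene after a second quantile normalization and 0 to 1 without 1 array. The difference from MEPs, with 17 genes, gave 11 to 25 without 1 array and 6 without WT 4212 and 4213. With a replicate block the difference from MEPs gave 16 genes, and the difference from CMPs gave 0. The block assumed that a shared number in the labels meant 1 mouse, which the labels do not state. The correlation within blocks was estimated at -0.076 in both fits. Within GMPs no paired analysis was possible, as the genotypes share a single number and come from different mice. Of 683 alternatives for single named genes, 457 kept direction and call, 225 lost the call, and 1 turned, 5730494M16Rik with an intensity filter of 100 (0.14). The cause was not tested.

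Without WT 4212 and 4213 no call passed. All 32 genes kept their direction there, which was close to certain in advance because their groups did not overlap. Of the 32, 15 lay below 200 in all WT arrays. The fold of these 15 has a bound or, for Abca8b, Fstl1 and Il6, is not given. The markers of WT 4212 and 4213 go against their label.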
